A study of Mus musculus with 4 samples.

Results

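The genes described here are the ligands and receptors of axon guidance: the Eph receptors and their ephrin ligands, the semaphorins of classes 3 to 7 and their plexin receptors, the Slits and their Robo receptors, and the netrins and their Unc5 receptors. They were chosen by gene symbol with earlier results of these data known, and the rule itself uses no measured value. The rule found 65 of the 28250 genes with a deposited value, namely 14 Eph receptors, 8 ephrins, 20 semaphorins, 9 plexins, 3 Slits, 4 Robos, 3 netrins and 4 Unc5 receptors.

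The study asked how inhibitors of histone deacetylases change mouse embryonic stem cells (ESCs). RNA-seq was analysed here from TBV2 cells, a feeder-dependent mouse ESC line. There were 2 libraries from cells given solvent for 24 h and 2 from cells given MS-275, an inhibitor of class I histone deacetylases, at 5 µM for 24 h. All 4 libraries came from the same line, for which the labels name a feeder layer, LIF (the cytokine that holds ESCs undifferentiated) and gelatin-coated plates, and the labels name no genetic change in either group. Whether the feeder cells were removed before RNA was taken is not stated in the sources used here, and the 2 libraries of a group are not said to be separate cultures, so the p-values measure a spread that may be technical.

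In the developing nervous system, growing axons read these molecules as attractive or repulsive cues. Eph receptors are tyrosine kinases that bind ephrins on the neighbouring cell, with A ephrins held by a lipid anchor and B ephrins spanning the membrane, and both partners can signal. Semaphorins act mostly through plexins, Slits repel axons through Robos, and netrins attract or repel according to whether a cell carries Dcc or an Unc5 receptor, and many of these genes also work in blood vessels and early embryos.

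Each value is a normalized expression signal per gene, made by the authors and not a read count. The values followed the number of alignment positions per kb of exon more closely than the number of positions itself (Pearson's r of 0.92 against 0.844 on the log2 scale over 12419 genes for the values of solvent replicate 1, a description across genes that are not independent replicates), so levels are compared between genes as a signal that tracks expression per length. The 4 libraries held between 9785619 and 23467935 alignments of 35 bases, and the values of each library sat closer to the alignments deposited under the other replicate number of its condition. Alignment replicates are therefore numbered as deposited, and no statement below sets a value of 1 library against its own alignments. Every member but Epha5 reached 0.001 in at least 2 libraries, so 64 were tested among 20336 genes. Epha3 and Unc5d reached 0.001 in the MS-275 libraries alone, so they could hardly have been called lower.

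With 5 µM MS-275 more guidance genes stood higher than lower. The largest differences upward were in Sema7a, Sema4f, Efnb2, Plxnd1 and Efnb1, and the largest downward in Epha4, Sema4b and Plxnb1. Their median log2 difference, MS-275 minus solvent on the scale of log2(value + 0.005), was 0.61, against 0.20 over all genes tested. Within replicate pair 1 it was 0.65 against 0.13 and within replicate pair 2 it was 0.54 against 0.24. In 49 of 64 members both pairs were higher and in 8 both were lower, counts for which no share over all genes was taken. Both MS-275 values lay above both solvent values in 38 of the 65, below them in 4, and overlapped in 23, where 32.3% of all genes tested lay above and 12.0% below.

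In the limma fit without pairing, none of the 64 members passed an adjusted p of 0.05, and 0.00492% of all genes did. The lowest adjusted p among them was 0.0703, and an unadjusted p under 0.05 was reached by 18 members upward and 2 downward. Of all 20336 genes tested, 2974 reached it upward and 564 downward. In the limma fit with the replicate number as a block, 30 members rose and 3 fell, which is 46.9% and 4.69% of those tested, while 21.0% of all genes were called higher and 6.46% lower. The words rose and fell below refer to this fit with the block. Its count depends on scaling: with median-ratio scaling 26 members were higher and 5 lower, and with quantile normalization 17 were higher and 9 lower. The median of all genes moved from 0.20 to 0.03 and -0.03 under these scalings, and the members' median stood 0.42, 0.47 and 0.35 above it in turn. A rule without a test, at least 2-fold in both pairs, was met upward by 25 of 65 members against 11.5% of all genes, and downward by 1, Epha4, against 2.04%. A difference given below without 1 library comes from a fit without the block, which leaves the replicates unbalanced between groups.

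A count of distinct alignment positions on exons, made here from the deposited alignments, gave a readout that does not use the authors' normalization. Limma-voom on these positions tested 61 members and called 22 higher and 2 lower without the block (14.6% and 4.88% of all genes) and 39 higher and 7 lower with it (29.8% and 13.8%). All 30 members that rose on the values were also higher on exon positions with the block, and all 3 that fell were lower. Both readouts come from the same libraries, and no share over all genes was taken for this overlap. Some members called higher, such as Epha3, Ephb1, Sema3a, Sema3d, Sema6d and Unc5d, met the filter of 10 positions in 2 libraries through MS-275 alone. Such members could hardly have been called lower. Of the members not called on the values, Epha2, Ephb3, Sema3d, Sema4g, Sema6d, Plxna2, Plxnc1, Robo1 and Robo3 were higher and Sema3e, Sema5b, Plxnb2 and Ntn1 lower on positions with the block, and of these Robo3 alone passed without it. The median log2 difference on positions was 0.94 for the members and 0.14 for all genes.

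**Figure D1:**
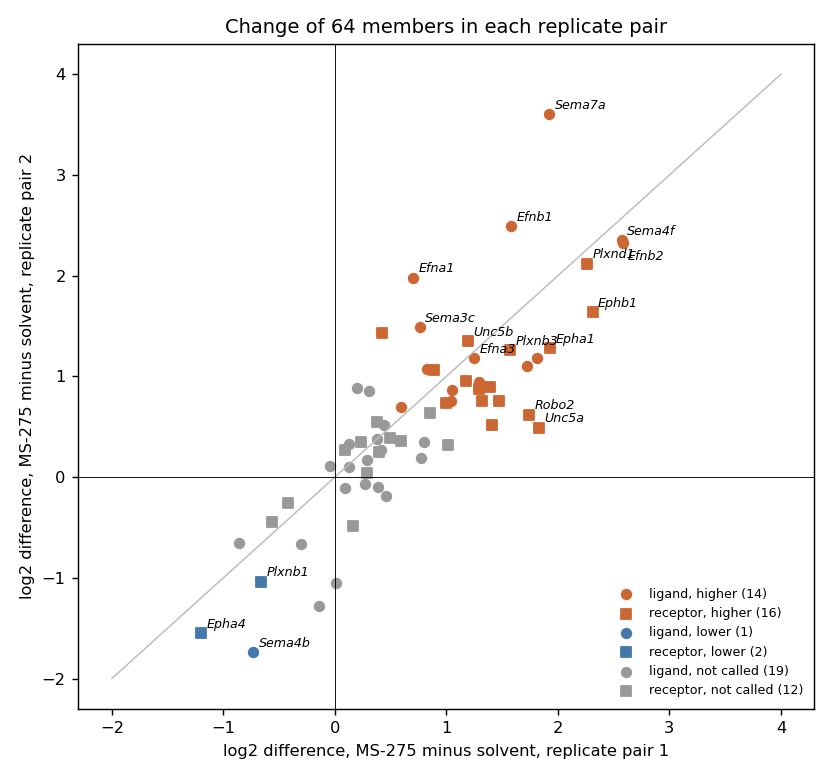
Log2 difference of MS-275 minus solvent, on the scale of log2(value + 0.005), in replicate pair 1 (horizontal) and replicate pair 2 (vertical) for the 64 members tested. Circles are ligands and squares receptors, coloured by the call of the limma fit with the replicate block, and the grey line marks equal differences. The 30 called higher all lie in the upper right, and Epha4, Sema4b and Plxnb1 lie in the lower left.

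The promoters of 4 members with large changes are shown so that their composition can be read beside the values below. RefSeq promoters were found for 56 of the 65 members, as 72 windows of 250 bases before the annotated start. The 250 bases before the start of Efnb2 (chr8:8661243-8661492, minus strand), Sema7a (chr9:57939862-57940111, plus strand) and Plxnd1 (chr6:115995006-115995255, minus strand), which rose, and of Epha4 (chr1:77515089-77515338, minus strand), which fell, read 5′ to 3′ on the gene's strand in the GRCm38.p6 build of RefSeq. Capitals mark the GC box (GGGCGG or CCGCCC), the CCAAT box (CCAAT or ATTGG) and the TATA box (TATAAA or TTTATA).
Efnb2: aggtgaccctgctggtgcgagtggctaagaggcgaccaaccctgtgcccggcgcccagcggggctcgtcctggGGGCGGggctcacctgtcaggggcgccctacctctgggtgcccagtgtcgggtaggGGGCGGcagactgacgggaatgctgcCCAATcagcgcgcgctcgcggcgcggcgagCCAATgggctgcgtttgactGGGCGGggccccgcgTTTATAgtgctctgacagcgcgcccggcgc
Sema7a: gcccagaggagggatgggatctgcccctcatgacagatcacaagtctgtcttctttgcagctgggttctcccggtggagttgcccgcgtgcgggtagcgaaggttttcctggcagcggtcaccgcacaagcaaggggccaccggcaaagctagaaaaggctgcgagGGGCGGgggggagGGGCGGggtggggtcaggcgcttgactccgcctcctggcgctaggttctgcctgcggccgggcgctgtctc
Plxnd1: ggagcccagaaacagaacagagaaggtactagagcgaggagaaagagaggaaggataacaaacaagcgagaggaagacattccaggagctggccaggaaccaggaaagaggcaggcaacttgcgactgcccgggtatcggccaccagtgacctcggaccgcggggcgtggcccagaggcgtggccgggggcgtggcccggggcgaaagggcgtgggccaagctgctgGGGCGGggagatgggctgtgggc
Epha4: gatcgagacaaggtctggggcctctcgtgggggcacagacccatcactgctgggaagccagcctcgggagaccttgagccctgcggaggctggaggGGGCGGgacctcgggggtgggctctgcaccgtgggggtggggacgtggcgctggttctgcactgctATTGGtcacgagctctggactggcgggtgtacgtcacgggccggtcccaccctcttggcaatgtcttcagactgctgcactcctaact

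The Efnb2 window holds 27 CpG dinucleotides, 3 GC boxes, 2 CCAAT boxes and 1 TATA box, the Sema7a window 17 CpGs and 2 GC boxes, the Plxnd1 window 16 CpGs and 1 GC box, and the Epha4 window 14 CpGs, 1 GC box and 1 CCAAT box. A GC box on either strand stood in 69.4% of the members' windows, in 51.3% of the 17213 windows of genes tested and in 32.7% of all 32851. It stood in 68.8% of the 32 windows of members that rose and in 70% of the 40 windows of the other members, so the shares were similar in both. The CCAAT box stood in 27.8% of the members' windows in 35.2% of those of genes tested and in 33.8% of all windows, and the TATA box in 2.78%, 7.85% and 12.4%. The median window held 15.5 CpGs among the members, 13 among genes tested and 6 among all. These matches describe letters in a window and are no measure of binding.

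Among the ephrins, both changes above 2 on the log2 scale were in B ephrins. Efnb2, the transmembrane ephrin known from arteries and neural tissue (mm9 chr8:8617434-8661239), had signal values of 0.0097 and 0.0218 in solvent replicates 1 and 2 and 0.0829 and 0.129 with MS-275. Both MS-275 libraries were far above both solvent libraries. The log2 difference was 2.45 ± 0.28 (SE of the fit with the block, n = 2 pairs), with a limma adjusted p of 1.9e-05 with the block and 0.0786 without it. On exon positions Efnb2 went from 186 and 41 to 671 and 379.

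Efnb1, the B ephrin encoded on the X chromosome, had values of 0.0203 and 0.0167 with solvent and 0.0704 and 0.117 with MS-275. The groups did not overlap, and the log2 difference was 2.03 ± 0.299 with a limma adjusted p of 0.000145 with the block and 0.103 without. Efnb3, the remaining B ephrin, overlapped between the groups, with 0.0272 and 0.0222 against 0.0293 and 0.0202, a log2 difference of -0.01 ± 0.304 and an adjusted p of 0.984. Whether the B ephrins differ from each other in their change was not tested.

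Of the 5 A ephrins 3 rose. Efna1 had 0.0219 and 0.00942 with solvent and 0.0385 and 0.052 with MS-275, a log2 difference of 1.34 ± 0.341 and a limma adjusted p of 0.00839 with the block and 0.334 without. Efna3, the A ephrin with the highest mean over the 4 libraries, had 0.0592 and 0.0369 with solvent and 0.147 and 0.0901 with MS-275, a log2 difference of 1.22 ± 0.243 and adjusted p-values of 0.00163 and 0.231. In both genes the MS-275 libraries stood above the solvent libraries, though Efna1 was 0.89 without solvent replicate 2. Of the Efna3 exon bases, 85.9% belong to no other gene, and its positions were counted on these (102 and 75 against 211 and 205). Efna2 rose as well, by 0.95 (0.57 without solvent replicate 1, 0.45 without MS-275 replicate 2 and 1.45 without MS-275 replicate 1), but not under median-ratio or quantile scaling, while Efna4 (0.54) and Efna5 (0.15) were not called.

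**Figure D2:**
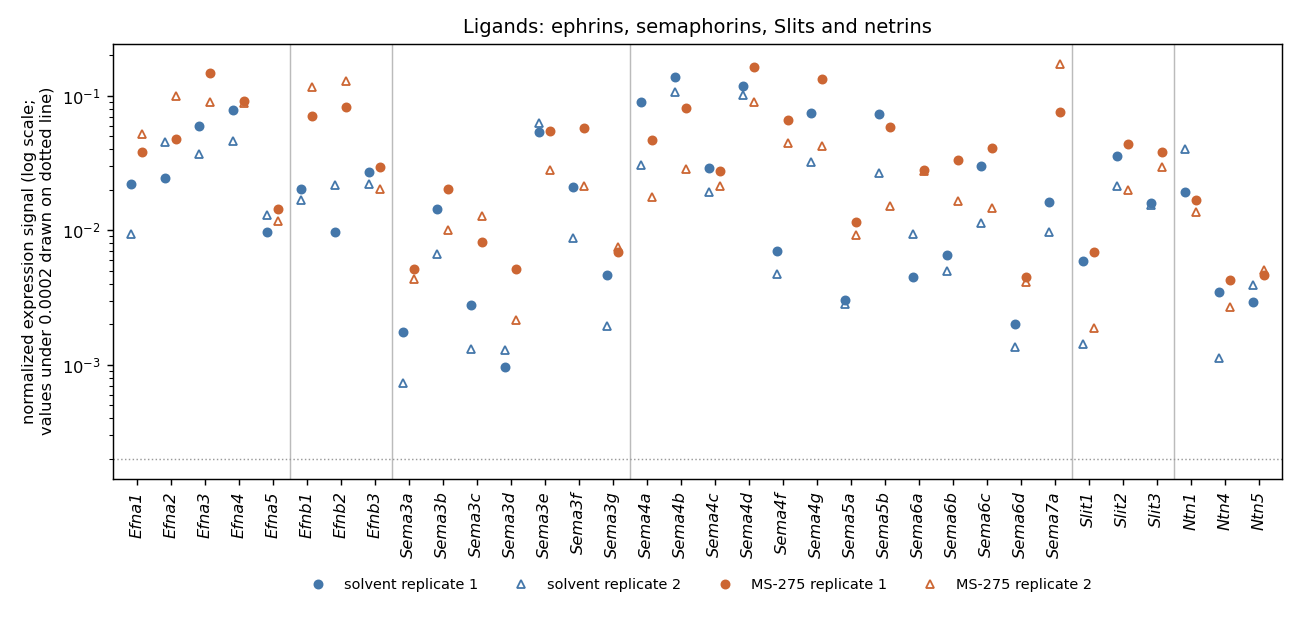
Normalized expression signal, on a log axis, of the 34 ligands in solvent (blue) and MS-275 (orange) libraries, with filled circles for replicate 1 and open triangles for replicate 2, and grey lines between A ephrins, B ephrins, class 3 semaphorins, membrane semaphorins, Slits and netrins. Efnb1, Efnb2, Sema4f and Sema7a show both MS-275 points far above both solvent points, and Sema4b both below.

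The Eph receptors held the highest solvent level of all members, and that gene showed the largest fall. Epha4, the Eph receptor that binds ephrins of both classes (mm9 chr1:77363760-77511663), had 0.468 and 0.24 with solvent, the highest mean of the 65 genes, and 0.2 and 0.0787 with MS-275. Both treated libraries were below both controls. The log2 difference was -1.38 ± 0.222 with a limma adjusted p of 0.000318 with the block and 0.206 without. It was -0.90 without solvent replicate 1, -2.02 without MS-275 replicate 1 and -0.73 without MS-275 replicate 2. Exon positions fell alongside, from 1418 and 2326 to 458 and 1275.

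Epha2, a receptor long known from ESCs and epithelia, was second with solvent and highest with MS-275. Its values were 0.202 and 0.211 with solvent and 0.307 and 0.273 with MS-275, which do not overlap, yet the log2 difference of 0.48 ± 0.222 was not called (limma adjusted p of 0.123 with the block). It was called higher with the block under quantile normalization, and on exon positions, where 1090 and 709 stood against 1039 and 1162 and overlap (log2 difference 0.39, limma-voom adjusted p of 0.0149 with the block and 0.237 without). Mean Epha2 signal was thus 0.207 ± 0.00677 (SD, n = 2) with solvent and 0.29 ± 0.0243 with MS-275, and mean Epha4 signal 0.354 ± 0.161 and 0.139 ± 0.0858. With solvent the SD of Epha4 spans the gap between these receptors, so their order there is not resolved.

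The other A receptors started far lower, and 5 of the 8 tested rose. Epha1 had 0.0301 and 0.0174 with solvent and 0.129 and 0.0493 with MS-275, a log2 difference of 1.61 ± 0.286 and a limma adjusted p of 0.000695 with the block and 0.224 without. Epha8 had 0.00694 and 0.00226 with solvent and 0.0262 and 0.00848 with MS-275, a log2 difference of 1.14 ± 0.293 and adjusted p-values of 0.00894 and 0.349. In both, each MS-275 library lay above both solvent libraries. The differences in pairs 1 and 2 were 1.93 and 1.28 for Epha1 and 1.39 and 0.89 for Epha8. Leaving out 1 library, which unbalances the replicates between groups, moved the size of both. Without MS-275 replicate 1 the differences were 0.95 for Epha1 and 0.53 for Epha8, and without MS-275 replicate 2 they were 2.26 and 1.75.

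Epha3, Epha7 and Epha10 also rose, though quantile normalization ended the calls of Epha7, Epha8 and Epha10, and the difference of 1.12 in Epha10 was 0.63 without MS-275 replicate 1. Epha3 was listed at 0 in both solvent libraries and at 0.00502 and 0.00333 with MS-275. Its exons held 0 distinct positions in each solvent library and 28 and 31 with MS-275, which is at least 11.2-fold and 9.26-fold higher in the 2 pairs of alignments when 3 positions per library are taken as the limit that a count of 0 allows, counting error only. Epha6 was not called (0.29), and Epha5 is taken up below with its introns.

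Of the B receptors 3 of 5 rose. Ephb1 (mm9 chr9:101824458-102257023) was near 0 with solvent, at 0.00143 and 0.00174, and reached 0.0268 and 0.016 with MS-275. The groups are separated widely, with a log2 difference of 1.97 ± 0.294 and a limma adjusted p of 0.000159 with the block and 0.0735 without. Since the added 0.005 damps a change from so low a level, the exon positions are the plainer readout, with 5 and 2 against 64 and 67.

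Ephb2, the B receptor best known from synapses and midline crossing, had 0.0596 and 0.0344 with solvent and 0.153 and 0.0672 with MS-275. Its log2 difference was 1.08 ± 0.253 (limma adjusted p of 0.0049 with the block and 0.359 without), 0.52 without MS-275 replicate 1 and 1.65 without MS-275 replicate 2. Ephb6, which lacks kinase activity, rose by 0.92 (0.60 without MS-275 replicate 2) but not under either other scaling. Ephb3 had the highest mean of the B receptors over the 4 libraries, with 0.102 and 0.0488 against 0.145 and 0.0656. Its groups overlap and it was not called on the values, and neither was Ephb4.

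**Figure D3:**
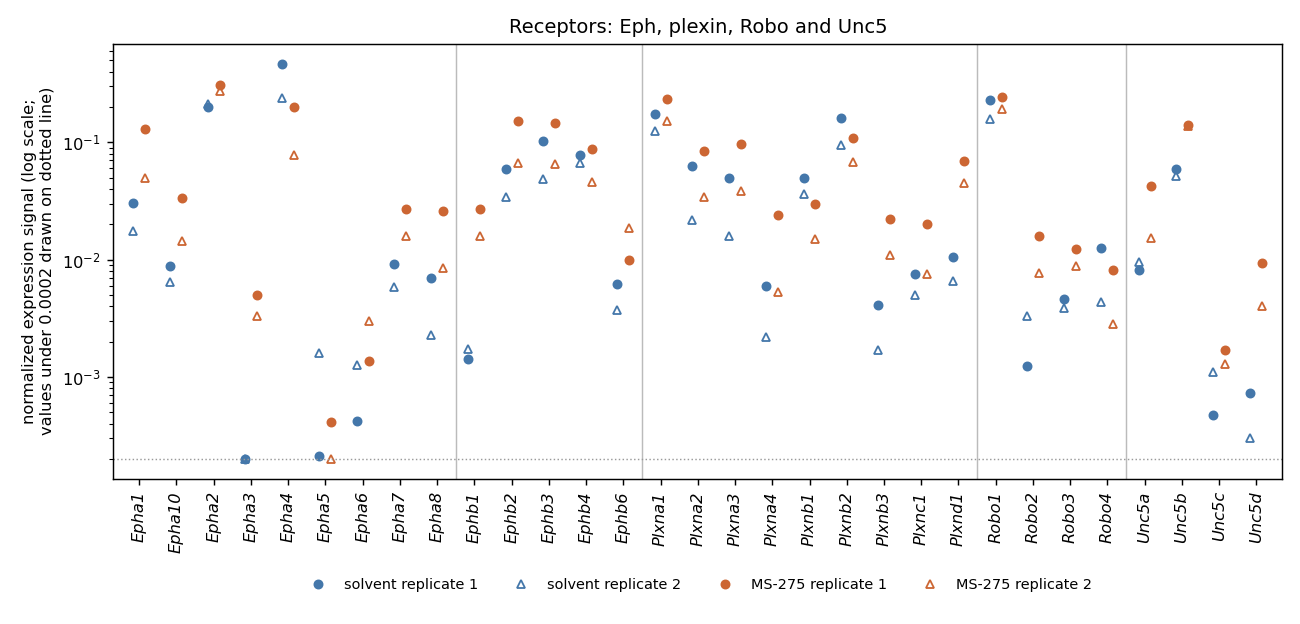
Normalized expression signal, on a log axis, of the 31 receptors in solvent (blue) and MS-275 (orange) libraries, with filled circles for replicate 1 and open triangles for replicate 2, and grey lines between A Eph receptors, B Eph receptors, plexins, Robos and Unc5 receptors. Epha4 is the highest with solvent and lower with MS-275, while Ephb1, Plxnd1, Unc5b and Unc5d lie higher with MS-275 in both replicates.

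Of the 7 secreted class 3 semaphorins, which signal through neuropilins and A plexins, 3 rose and all 3 of these calls were lost under quantile normalization. Sema3c had 0.00276 and 0.00132 with solvent and 0.00817 and 0.0128 with MS-275, a log2 difference of 1.13 ± 0.275 and a limma adjusted p of 0.00633 with the block and 0.149 without. Sema3f, a repellent read by neuropilin 2, had 0.0208 and 0.00879 with solvent and 0.058 and 0.0215 with MS-275, a difference of 1.11 ± 0.308 and adjusted p-values of 0.0135 and 0.5. Neither pair of groups overlaps. Sema3f was 0.66 without solvent replicate 2, 0.49 without MS-275 replicate 1 and 1.74 without MS-275 replicate 2.

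Sema3a, a classic repellent of axons, rose by 0.65 from values of 0.00175 and 0.00073, and median-ratio scaling also ended its call. Sema3e, the ligand of Plxnd1, had the highest mean of its class over the 4 libraries, with 0.0538 and 0.0631 against 0.0544 and 0.028. Its difference was 0.01 in pair 1 and -1.05 in pair 2, and it was not called on the values (limma adjusted p of 0.219 with the block) except under quantile normalization, while exon positions called it lower (528 and 310 against 236 and 282, log2 difference -0.59, limma-voom adjusted p of 0.008 with the block and 0.181 without). Sema3b, Sema3d and Sema3g were not called on the values.

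Of the 13 membrane semaphorins 5 rose and 1 fell. Sema7a, the one semaphorin held by a lipid anchor, which acts through integrins and Plxnc1 (mm9 chr9:57787920-57810671), had 0.0163 and 0.00971 with solvent and 0.0756 and 0.173 with MS-275. That is the largest log2 difference of all 64 members tested, 2.76 ± 0.349, at 1.92 in pair 1 and 3.60 in pair 2 (limma adjusted p of 4.24e-05 with the block and 0.0703 without). Its receptor Plxnc1 was not called on the values (0.67).

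Sema4f, a transmembrane semaphorin (mm9 chr6:82861879-82889763), had 0.00704 and 0.00474 with solvent and 0.0663 and 0.0447 with MS-275. The difference of 2.46 ± 0.308 was even across the pairs, at 2.57 and 2.35 (limma adjusted p of 4.01e-05 with the block and 0.0848 without). Exon positions of Sema4f went from 41 and 27 to 285 and 286, so both readouts placed every treated library far above every control. Sema5a, Sema6a and Sema6b rose by 0.96, 1.49 and 1.41, and Sema5a was not called under quantile normalization.

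Sema4b was the ligand that fell. Its values were 0.139 and 0.107 with solvent and 0.0817 and 0.0285 with MS-275, with no overlap, a log2 difference of -1.24 ± 0.272 and a limma adjusted p of 0.00319 with the block and 0.273 without. The difference was -0.73 in pair 1 and -1.74 in pair 2. It was -1.92 without MS-275 replicate 1 and -0.55 without MS-275 replicate 2, so its size varied between the treated libraries. Sema4d, the ligand of Plxnb1 with the highest mean of this class over the 4 libraries, had 0.119 and 0.102 against 0.165 and 0.0892 and was not called; its sign turns under median-ratio scaling. The other 6 membrane semaphorins, Sema4a, Sema4c, Sema4g, Sema5b, Sema6c and Sema6d, were not called on the values as deposited. Sema4a (-0.75, limma adjusted p of 0.0583 with the block) was called lower under both other scalings. Sema5b (-0.48) was called lower under quantile normalization.

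Of the 9 plexins 4 rose and 1 fell. Plxnd1, the receptor of Sema3e that is known from vessels (mm9 chr6:115904829-115945023), had 0.0106 and 0.00653 with solvent and 0.0697 and 0.045 with MS-275. The difference was 2.19 ± 0.304, at 2.26 and 2.12 in the 2 pairs, with a limma adjusted p of 9.11e-05 with the block and 0.112 without. Plxnb3 had 0.0041 and 0.00171 with solvent and 0.022 and 0.011 with MS-275, a difference of 1.41 ± 0.282 and adjusted p-values of 0.00162 and 0.159. Both plexins had every treated library above every control. Plxna3 and Plxna4 rose too (0.98 and 0.97), though their groups overlap and quantile normalization ended both calls. In pairs 1 and 2 Plxna3 differed by 0.89 and 1.06, and Plxna4 by 1.41 and 0.52. Plxna3 was 0.28 without solvent replicate 2, 0.36 without MS-275 replicate 1, 1.67 without solvent replicate 1 and 1.59 without MS-275 replicate 2. Plxna4 was 0.22 without MS-275 replicate 1 and 1.71 without MS-275 replicate 2.

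Plxnb1, the receptor of Sema4d, had 0.0501 and 0.036 with solvent and 0.03 and 0.015 with MS-275. The groups did not overlap, and the difference was -0.85 ± 0.298 (limma adjusted p of 0.045 with the block and 0.587 without) and -0.44 without MS-275 replicate 2. Adding 0.02 in place of 0.005 ended this call. Plxna1 had the highest mean of the plexins over the 4 libraries, with 0.176 and 0.126 against 0.235 and 0.151, and was not called. Plxnb2, which had a mean of 0.128 with solvent, fell short of the threshold on the values (-0.51, adjusted p of 0.111 with the block), was called lower under both other scalings, and was lower on exon positions with the block (770 and 863 against 373 and 682, log2 difference -0.61, limma-voom adjusted p of 0.00092 with the block and 0.0811 without). Plxna2 was not called on the values.

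On the values the median log2 differences of the Slits, Robos and netrins were 0.11, 0.47 and 0.23. Of the Slits, Slit3 alone was called, with 0.016 and 0.0153 against 0.0382 and 0.0293, a log2 difference of 0.90 ± 0.306 and a limma adjusted p of 0.039 with the block and 0.544 without; neither other scaling kept the call. Slit2, the Slit with the highest mean over the 4 libraries, had 0.0357 and 0.0212 against 0.044 and 0.0199, an overlap, and its sign turns with the scaling. Slit1 was not called.

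Among the Robos, Robo2 rose from 0.00124 and 0.00328 to 0.0159 and 0.0077. The groups did not overlap, the difference was 1.18 ± 0.299 (limma adjusted p of 0.00817 with the block and 0.172 without), and quantile normalization ended the call. Robo1 was among the 3 highest members in both conditions, with 0.229 and 0.157 against 0.245 and 0.191, a difference of 0.18 ± 0.219 that turned to -0.04 under median-ratio scaling. Robo3 (0.75, adjusted p of 0.0536 with the block) and the endothelial receptor Robo4 (-0.34) were not called on the values as deposited. Quantile normalization with the block called Robo4 lower. Exon positions of Robo3 went from 15 and 6 to 65 and 50, with no overlap (log2 difference 2.55, limma-voom adjusted p of 2.95e-05 with the block and 0.0261 without), and its introns were higher as well (3.85, adjusted p of 1.21e-05 with the block).

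In limma 0 of the 3 netrins passed on the values, and 0 had an unadjusted p under 0.05, with or without the block. Ntn1, the classic attractant, had 0.0192 and 0.0401 with solvent and 0.0169 and 0.0136 with MS-275. Both treated libraries were below both controls, with a log2 difference of -0.14 in pair 1, -1.28 in pair 2 and -0.71 ± 0.338 in the fit (limma adjusted p of 0.13 with the block). Quantile normalization alone brought it past the threshold. Exon positions called it lower, with 415 and 109 against 122 and 108 (log2 difference -0.95, limma-voom adjusted p of 0.00223 with the block and 0.371 without). The 415 positions of 1 solvent set stand apart from the other 3 sets. Ntn4 and Ntn5 differed by 0.23 each and were not called.

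Of the 4 Unc5 receptors, which bind netrins, 3 rose. Unc5b had the highest mean of its family over the 4 libraries, with 0.0589 and 0.0517 against 0.141 and 0.139, and the 2 libraries of each group lay close together. Its difference of 1.27 ± 0.235 came at 1.19 and 1.35 in the 2 pairs (limma adjusted p of 0.00093 with the block and 0.148 without). Unc5a had 0.0082 and 0.0095 against 0.0421 and 0.0154, a difference of 1.16 ± 0.35 (adjusted p-values of 0.0214 and 0.421) that was 0.56 without MS-275 replicate 1 and 1.77 without MS-275 replicate 2, and that was not called under quantile normalization. Unc5d rose by 1.04 from values of 0.00073 and 0.0003, with exon positions of 4 and 2 against 58 and 86. Unc5c was not called.

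Alignments inside introns, a readout of RNA that still holds introns and one that the rule and the values do not use, were counted as well. The protocol selected poly(A) RNA and kept no strand, so antisense transcripts cannot be told apart. Intron positions could be tested for 55 members, of which limma-voom with the block called 33 higher and 3 lower (28.9% and 13.6% of all genes), with a median log2 difference of 1.43 against 0.21 over all genes. Several of the 33, such as Epha3, Efna3, Sema3a, Sema3b, Plxna4, Plxnd1 and Robo3, met the filter of 10 positions in 2 libraries through MS-275 alone. They could hardly have been called lower. The 33 and the median include Epha5, whose exons were nearly empty and whose intron positions lay mostly in a single stretch, as described below. Of the 30 members that rose on the values, 26 could be tested on introns and 22 were higher there, an overlap for which no share over all genes was taken. Of the 3 that fell, Epha4 (273 and 404 against 137 and 231) and Sema4b (182 and 87 against 60 and 56) were lower on introns, while Plxnb1 was not called. Without the block neither Epha4 nor Sema4b passed on introns (limma-voom adjusted p of 0.234 and 0.114).

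Introns of several members that rose also held more positions with MS-275. Ephb1 introns held 15 and 4 positions with solvent and 130 and 87 with MS-275, Sema4f introns 15 and 6 against 105 and 73, and Unc5d introns 14 and 12 against 101 and 76. A few members looked different on the 2 readouts. Robo1 introns went from 268 and 231 to 546 and 478 (log2 difference 1.18) while its exons moved by 0.32, and Slit3 introns held 283 and 211 against 235 and 232 (0.07) while its exons moved by 0.94. Sema7a moved by 1.58 on introns and 2.67 on exons, and Unc5d by 2.89 and 4.45. These were singled out after their values were seen. The difference between intron and exon change was tested in limma with the block over 12799 genes, and 0 of 53 members passed, as did 0.00% of all genes, with 14 members and 1741 genes at an unadjusted p under 0.05. Without the block 0 members passed as well.

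**Figure D4:**
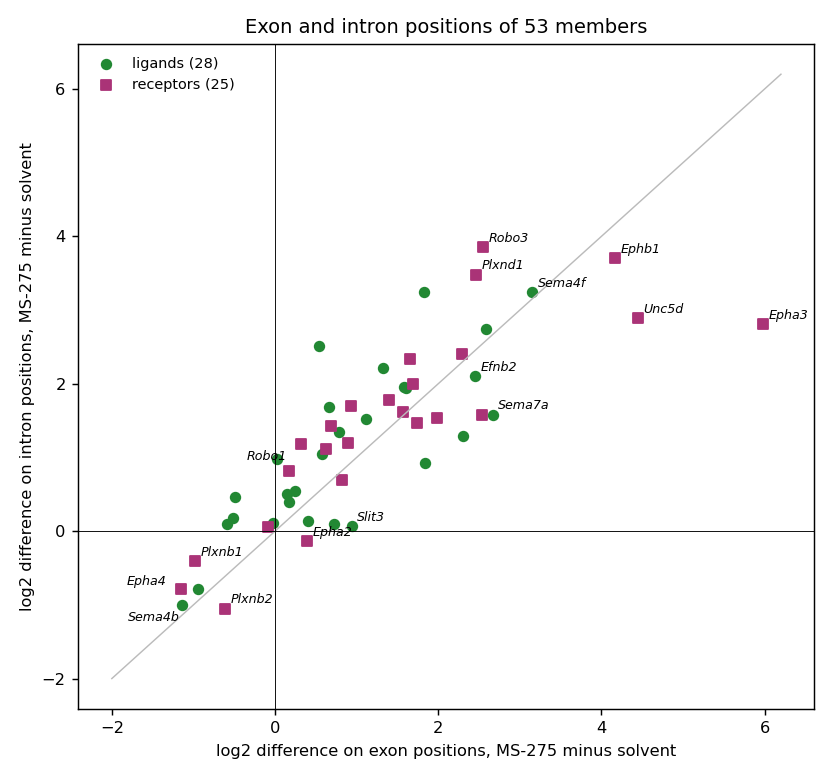
Log2 difference of MS-275 minus solvent in distinct alignment positions on exons (horizontal) and introns (vertical), from limma-voom with the replicate block, for the 53 members with enough positions of both kinds. Circles are ligands, squares receptors, and the grey line marks equal change. Most members lie in the upper right, with Epha4, Sema4b, Plxnb1, Plxnb2 and Ntn1 in the lower left, Robo1 above the line and Slit3 below it.

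Epha5 stood apart. This receptor of the A class, known from the brain (mm9 chr5:84486816-84846407), did not pass the filter, with values of 0.00021 and 0.00159 against 0.00041 and 0, and its exons held 1 and 1 positions with solvent and 0 and 1 with MS-275. Its introns held 15 and 9 positions with solvent and 103 and 95 with MS-275 (log2 difference 3.16, limma-voom adjusted p of 3.04e-11 with the block). When the gene was cut into 12 equal stretches of 30 kb, the second and the third from its start held 15 and 9 of the solvent positions and 100 and 89 of the MS-275 positions, leaving 0 and 0 with solvent and 3 and 6 with MS-275 in the rest. The positions thus lie within intron 2, which runs from 31.2 to 85.5 kb from the start, and fell on the plus and minus strand about equally with MS-275 (48 and 55 in replicate 1, 50 and 45 in replicate 2).

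**Figure D5:**
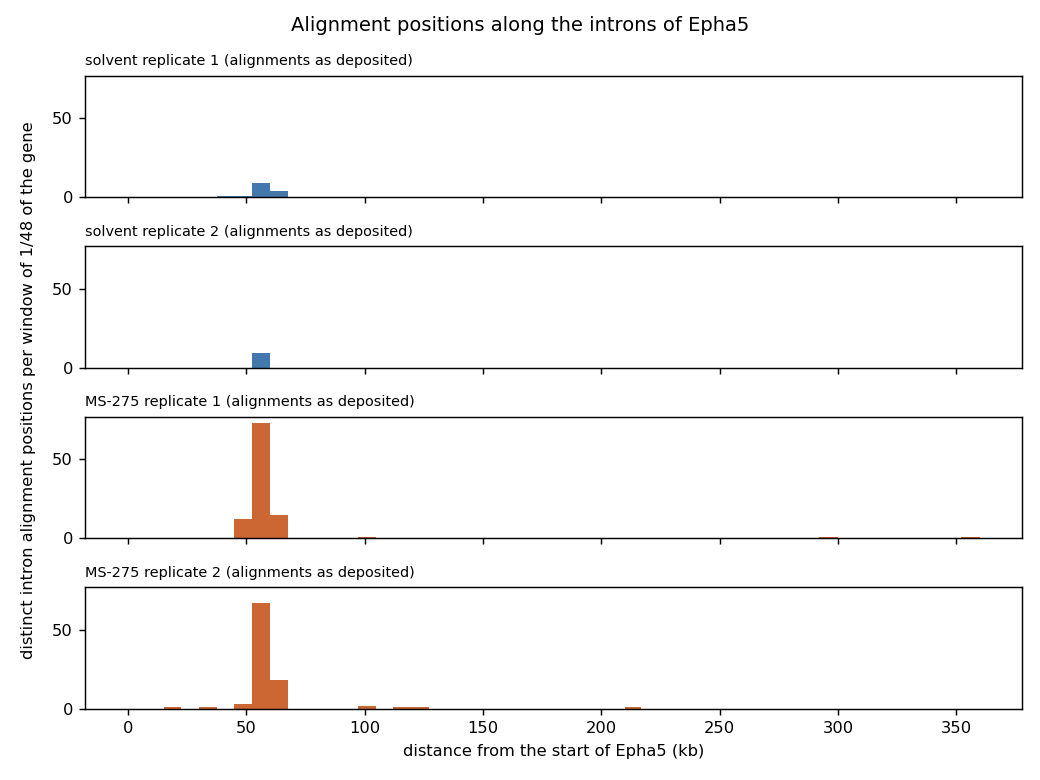
Distinct alignment positions in the introns of Epha5, counted in 48 equal windows from the start of the gene (distance in kb) in each of the 4 alignment sets. All sets peak between 52.4 and 67.4 kb, with 13 and 9 positions there in the solvent sets and 88 and 85 in the MS-275 sets, and the remainder of the gene is nearly empty.

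Coreceptors and signalling partners of these molecules were read from lists drawn up from their roles, with earlier results of these data known. Of 30 coreceptors and surface proteins tested, 11 rose and 0 fell with the block, and of 63 cytoplasmic signalling proteins 14 rose and 3 fell, next to the 21.0% and 6.46% of all genes. Their medians were 0.48 and 0.16 against 0.20 over all genes, and without the block 0 genes of either list passed, with 7 and 9 at an unadjusted p under 0.05. Of all 20336 genes tested, 2974 reached that unadjusted p upward and 564 downward. Dcc, the netrin receptor that pairs with Unc5, rose from 0.00229 and 0.00143 to 0.0149 and 0.0176 (1.63 ± 0.278, limma adjusted p of 0.000499 with the block and 0.0838 without). Cntn1, a contactin of the axon surface, rose from 0.00167 and 0.00127 to 0.0261 and 0.0103 (1.76 ± 0.297, adjusted p-values of 0.000467 and 0.0923). Both were near 0 with solvent, and in both each treated library exceeded each control.

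Within the cytoplasmic list the changes went both ways. Rnd1, a small GTPase that binds plexins, rose from 0.0176 and 0.0108 to 0.134 and 0.249 (3.31 ± 0.314, limma adjusted p of 4.14e-06 with the block and 0.0581 without). Ngef, an exchange factor that acts downstream of Epha4, rose by 1.57 ± 0.324 (adjusted p-values of 0.00202 and 0.227), and by 0.89 without MS-275 replicate 1 and 2.26 without MS-275 replicate 2. Dock1, a Rac activator, fell from 0.17 and 0.175 to 0.0518 and 0.03 (-1.99 ± 0.254, adjusted p-values of 4.63e-05 and 0.0703), and Enah, an actin regulator, fell from 0.874 and 1.52 to 0.446 and 0.4 (-1.44 ± 0.298, 0.00212 and 0.264). Apart from Ngef, leaving out 1 library moved none of these partner values by over 1.5 times on the fold scale.

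Markers of other cells were read beside these changes, since in bulk RNA fewer cells of a type and less RNA per cell cannot be told apart. Of 10 ESC markers, 0 rose and 4 fell with the block (Pou5f1, Esrrb, Utf1 and Fgf4), and their summed signal was 6.08 and 23.2 with solvent and 4.83 and 13.6 with MS-275, so the labelled cell type was present in every library. The log2 difference of -0.95 in Pou5f1 was -0.11 without solvent replicate 2, and those of -1.45 in Utf1 and -1.56 in Fgf4 were both -0.81 without MS-275 replicate 2. Of 19 feeder fibroblast markers tested 8 rose and 0 fell, with a summed signal of 1.68 and 2.75 against 1.96 and 2.39. Most of that sum came from Fn1 (0.872 and 1.73 against 0.709 and 0.794) and Vim (0.345 and 0.63 against 0.37 and 0.811). Neither gene was called, so the sum says little about the other fibroblast markers. Of 9 neural progenitor markers 5 rose and 1 fell (0.0879 and 0.0675 against 0.18 and 0.165), of 11 neuron markers 4 rose and 0 fell (1.42 and 2.44 against 1.51 and 2.61), of 7 endothelial markers 4 rose and 1 fell (0.597 and 0.603 against 0.496 and 0.16), and of 7 glia markers 3 rose and 1 fell (0.299 and 0.145 against 0.26 and 0.151). Of all genes 21.0% were called higher and 6.46% lower in the fit with the block. Most of the endothelial sum came from Pecam1 (0.529 and 0.567 against 0.331 and 0.0962), the endothelial marker that fell. The largest part of the neuron sum came from Stmn2 (0.856 and 1.99 against 0.6 and 1.45), which was not called. Without the block 0 markers of any list passed in limma, with 2 ESC, 4 fibroblast, 6 neural progenitor, 4 neuron, 5 endothelial and 4 glia markers at an unadjusted p under 0.05. Of all 20336 genes tested, 2974 reached that unadjusted p upward and 564 downward.

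The 8 fibroblast markers that rose were Col1a1 (2.41), Fbn1 (1.37), Pdgfrb (1.20), Col1a2 (1.06), Pdgfra (1.06), Acta2 (0.96), Thy1 (0.91) and Lum (0.73), by their log2 differences. Fbn1 was 0.55 without solvent replicate 2 and 0.49 without MS-275 replicate 1, and Acta2 0.34 and 0.22. Among the neuron and neural progenitor markers the largest rises were in Nefm (3.62), Elavl3 (2.55) and Nes (2.29), with Elavl3 at 1.86 without MS-275 replicate 2. Sox1 fell (-1.16, and -0.50 without solvent replicate 1). Pax6 (-0.14), Tubb3 (0.27), Stmn2 (-0.48) and Gap43 (-0.45) were among those not called. No marker of any list was at 0 in all 4 libraries, and 1 each of the fibroblast (Fap), neural progenitor (Dcx) and neuron (Mtap2) lists stayed under 0.001 in all 4. The part of other cell types in the rises of the guidance genes was not tested.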

How the data were processed

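RNA-seq of TBV2 cells was analysed in 4 libraries, grouped by their titles, and the library titled as a duplicate was taken as replicate 2. Reads of poly(A) RNA had been mapped by the authors to mm9 and turned with Genomatix into normalized expression signal values, deposited for 28250 genes. The formula and the handling of repeated reads are not given in the sources used here, so the depth behind a single value is unknown. Shorter tables at 0.001 or more were not used, nor were the authors' tables of ratios within each replicate pair, which hold their own comparison. The control vehicle was not resolved and is called solvent. Deposited alignments were used as positions.

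The guidance genes, partner lists and marker lists were chosen with earlier results of these data known. Genes at 0.001 or more in at least 2 libraries were tested with limma 3.58.1 (R 4.3.3; lmFit and eBayes with a trend on log2(value + 0.005)), with Benjamini-Hochberg adjustment over all 20336 genes and a threshold of 0.05. The study's methods state no test. Replicate numbers mark pairs: per the file headers, the replicate 1 tables of solvent and of MS-275 alike carry the word old, and deviations from the group means correlated at 0.764 between libraries of the same number. The fit with this block is given beside the fit without it.

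Distinct alignment positions (chromosome, start and strand) were counted at the middle base on exons and introns of GENCODE M1 genes, and limma-voom tested genes that had 10 or more of them in no fewer than 2 libraries. Repeated positions made up 53.2% and 54.4% of the alignments of replicates 1 and 0% of replicates 2, as deposited. Positions in introns, the difference between introns and exons and the stretches of Epha5 were added after seeing the data. Of the 65 members, 65 matched a GENCODE gene by symbol, from which mm9 coordinates were taken. Promoters came from RefSeq on GRCm38.p6 and were used as sequence only.

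In each family, library values are given for the 2 largest rises and the 2 largest falls called with the block and alike in both pairs, and for the highest mean. For partners, the 2 largest rises and falls of each list are named. Members and markers named beyond these were picked after their values were seen. Alternatives were other pseudocounts, filters and scalings, eBayes without a trend, positions, a 3-fold rule and a floor of 0.01 for the fold rule, and each library left out. The steps were tested on simulated data. Python 3.11.15, pandas 2.3.3, numpy 2.4.6 and matplotlib 3.10.9 made the tables and figures.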

Additional observations from a re-analysis of the deposited data

Results flagged for a closer look

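The introns of Epha5 were singled out because they hold a signal in data that the values do not use, above the level in the solvent libraries. They held 103 and 95 distinct positions in MS-275 replicates 1 and 2 against 15 and 9 with solvent, a log2 difference of 3.16, while the exons held at most 1 position in any library. The positions concentrate within intron 2 and fall on both strands. GENCODE M1 has 1 other gene with exons inside Epha5, and the bases of those exons were not counted.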

How the results depend on the processing

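Without the block, 1 gene was called higher and 0 lower over all genes, and 0 members in either direction. The counts over all genes were 0 higher with a pseudocount of 0.001 or 0.02, no filter, median-ratio scaling, quantile normalization or eBayes without a trend, while a mean value of at least 0.01 gave 466 higher and 65 lower over all genes and 3 members higher. Fewer genes are tested there, and the cause was not tested. Distinct alignment positions without the block gave 2481 higher and 831 lower, with 22 and 2 members.

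With the replicate block, which pairs libraries by number, 4277 genes were higher and 1314 lower, with 30 and 3 members. With the block and a pseudocount of 0.001 the counts were 4216 and 1220 (members 29 and 3), with a pseudocount of 0.02 they were 3790 and 1158 (29 and 2), and with a minimum mean value of 0.01 they were 2751 and 1091 (21 and 3). Median-ratio scaling gave 3414 and 2383 (26 and 5), quantile normalization 2936 and 2961 (17 and 9), and distinct positions 5065 and 2345 (39 and 7).

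The members' median log2 difference of 0.61 was 1.02 and 0.36 with pseudocounts of 0.001 and 0.02, 0.50 with median-ratio scaling, 0.32 with quantile normalization and 0.94 on distinct positions, with or without the block. With each library left out it lay between 0.45 and 0.91, and such fits leave the replicates unbalanced between groups. At least 3-fold in both pairs was reached upward by 12 members and downward by 0, against 25 and 1 at 2-fold, and 10 were 2-fold higher with a floor of 0.01.

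Of 429 values of the 29 named members under other settings, 421 kept their direction. The exceptions were Sema4d (-0.09), Slit2 (-0.10) and Robo1 (-0.04) under median-ratio scaling and Slit2 (-0.32) under quantile normalization, each with and without the block. With 1 library left out, Ephb3 ranged from -0.11 to 0.98, with -0.06 without solvent replicate 2, Sema4d from -0.29 to 0.56, Slit2 from -0.39 to 0.59, with -0.22 without solvent replicate 2, and Robo1 from -0.08 to 0.45. None of these 4 was called on the values. Genes at a few positions, among them Epha3, Unc5d and Ephb1 with solvent, have folds that the depth does not fix.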
